A study of Mus musculus with 6 samples.

Results

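The mouse HOX genes are described here in RNA-seq of control and senescent mouse adult fibroblasts (MAFs). Members were the rows of the gene count table that are annotated as protein-coding and carry a symbol made of Hox, a cluster letter from a to d and a number. This rule gave 39 genes of the 43346 in the table, with 11 in the Hoxa cluster on chromosome 6, 10 in Hoxb on chromosome 11, 9 in Hoxc on chromosome 15 and 9 in Hoxd on chromosome 2. Values, counts, sums and shares below are over 38 of them. The MAFs were primary cells from the ears of adult female C57BL/6J mice, grown at 3% oxygen. The 3 control samples were sham irradiated and the 3 senescent samples received 20 Gy of X-rays to stop division and induce senescence, and were cultured for 21 days afterwards. The culture time comes from the published methods and not from the sample labels. How long the control samples were cultured was not given, so irradiation and time in culture cannot be told apart. All 6 samples were given 100 nM dexamethasone, a glucocorticoid that synchronizes the circadian clock, for 2 hours and were collected 12 hours later. The comparison asks how gene expression differs between senescent and control cells. The labels do not say whether the 3 samples of a group came from separate mice or cultures, so p-values measure only the spread between these samples, which may be technical.

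HOX genes encode homeodomain transcription factors that give cells their position along the body axis and the limbs. They sit in clusters in which the order of the genes follows the order of their expression domains, from the low-numbered (anterior) paralogs, used in the hindbrain and the pharyngeal arches, to the high-numbered (posterior) ones, used in the lower trunk, the genital region and the distal limbs. Genes of the same number in different clusters are paralogs that arose by duplication of an ancestral cluster. Adult fibroblasts keep part of the HOX code of the site they came from, and Polycomb proteins hold the remaining HOX genes silent. The external ear, the source of these cells, forms largely from the second pharyngeal arch, where Hoxa2 is the selector gene.

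Library totals ran from 50288454 to 61747564 counts in control and from 53792998 to 82229553 in senescent samples. Senescent replicate 3 stood apart from the other senescent libraries, with a squared difference per gene at a median of 14.8 and 20 times that of sampling noise, against at most 4.42 times for any other pair within a group. Without it 15 HOX genes were called higher and 1 lower, as with it. Senescent libraries held counts for 25034 to 26281 genes and control libraries for 21416 to 21833. Of the 10 fibroblast markers listed, all were measured in both groups, with a summed level of 19178 to 21251 CPM (counts scaled to a common library size by TMM) in control and 7384 to 8685 in senescent libraries. By gene, 3 of them were called higher, 6 lower and 1 neither. The control libraries also held chondrocyte markers, at a summed level of 5677 to 6296 CPM over 12 genes against 382 to 478 CPM in senescent libraries, and all 11 that could be tested fell. Summed markers of macrophages rose from between 5.71 and 6.46 to between 14.1 and 16.2 CPM, and those of endothelium from between 2.53 and 2.93 to between 8.03 and 8.45 CPM, and each of the 5 genes tested in either list was called higher. Summed keratinocyte markers went from between 15.9 and 16.6 to between 12.2 and 13.6 CPM, adipocyte markers from between 35.2 and 38.8 to between 25.1 and 27.6 CPM, and Schwann cell and melanocyte markers from between 4.10 and 4.45 to between 3.73 and 4.31 CPM. These sums hide genes that went both ways. Of 4 keratinocyte genes tested 1 was called higher and 1 lower, of 2 adipocyte genes 1 each way. Of 4 Schwann cell and melanocyte genes tested, 1 was called higher and 2 lower. Over all genes tested, 36.2% were called higher and 34.1% lower. Skeletal muscle markers summed to between 15.6 and 20.9 CPM in control and between 15.1 and 27.7 CPM in senescent libraries, and of the 6, 2 had no count in any control library and 1 had none in any senescent library. The part of these other cell types in the HOX results was not tested. In bulk RNA, fewer cells of a type and less RNA per cell cannot be told apart.

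The proximal promoters of Hoxa2 and Hoxd13 are shown because these genes represent the opposite ends of the result, namely the member with the largest fall and a terminal posterior member that went from 1 count over the control libraries to counts in all senescent libraries. Hoxd13 was chosen after its values were seen. Each line gives the 250 bases before the RefSeq start on the gene's own strand (RefSeq, GRCm38.p6), chr6:52164832-52165081 on the minus strand for Hoxa2 and chr2:74667975-74668224 on the plus strand for Hoxd13. Capitals mark matches to CCAAT, to TATAAA, to CACGTG (the E-box bound by BMAL1) or to TGATTNAT (a joint HOX and PBX site) on either strand.
Hoxa2: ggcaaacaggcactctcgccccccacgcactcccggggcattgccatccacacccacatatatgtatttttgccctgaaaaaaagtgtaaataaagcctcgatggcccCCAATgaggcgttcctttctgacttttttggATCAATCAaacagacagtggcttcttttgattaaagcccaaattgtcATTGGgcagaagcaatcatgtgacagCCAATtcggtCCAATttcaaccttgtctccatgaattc
Hoxd13: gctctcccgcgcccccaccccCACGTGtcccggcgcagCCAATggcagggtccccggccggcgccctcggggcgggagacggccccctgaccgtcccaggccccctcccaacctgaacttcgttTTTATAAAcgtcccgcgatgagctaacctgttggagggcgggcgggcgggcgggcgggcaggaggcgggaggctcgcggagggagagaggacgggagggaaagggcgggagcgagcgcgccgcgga

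The pair differed in base composition. The Hoxa2 promoter was 46.4% G and C and held 6 CpG dinucleotides, 4 CCAAT matches and 1 HOX-PBX match. The Hoxd13 promoter was 74.4% G and C and held 31 CpG dinucleotides, 1 E-box, 1 CCAAT match and a TATAAA match on each strand, together spanning 8 bases. The RefSeq start of Hoxd13 lies upstream of the start of this gene in the count table. RefSeq entries matched 22 of the 38 genes with 24 promoters. Of Hoxb only Hoxb1, Hoxb4 and Hoxb8 were matched, and of Hoxc only Hoxc4, so the matched promoters are mostly of Hoxa and Hoxd. Their median was 58.6% G and C with 12.5 CpG dinucleotides, against 52.4% and 6 over all 32851 promoters in the table. CCAAT stood in 14 of the 24 HOX promoters and in 33.8% of all promoters, and CACGTG in 4 HOX promoters (Hoxd1, Hoxd10, Hoxd11 and Hoxd13) and in 6.02% of all. The AP-1 site, searched as TGACTCA or TGAGTCA, was found in the Hoxd11 promoter and in 4.46% of all promoters. TATAAA stood in 4 HOX promoters (Hoxa10, Hoxb8, Hoxd4 and Hoxd13) and in 12.4% of all, and TGATTNAT in those of Hoxa2 and Hoxd11 and in 2.82% of all. A match describes the letters and is not a measured binding site.

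Among the 38 genes, the RNA found in control MAFs was almost entirely Hoxa2, and in senescent MAFs it was spread over all 4 clusters. Of the 38, 15 were higher in senescent cells, 1 was lower (Hoxa2), 1 was tested and passed in neither direction (Hoxa3), and 21 had too few counts to be tested. Over all 17589 genes tested, 70.3% were called, 36.2% higher and 34.1% lower, at an adjusted p under 0.05 (edgeR quasi-likelihood test, Benjamini-Hochberg adjustment over all genes tested). Of the 17 HOX genes tested, 12 passed the filter on low counts only through their senescent libraries and therefore had to differ, so the share called is not set against that background. The 5 that did not depend on the senescent libraries were Hoxa2, which fell, Hoxa5, Hoxa7 and Hoxc13, which rose, and Hoxa3.

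**Figure D1:**
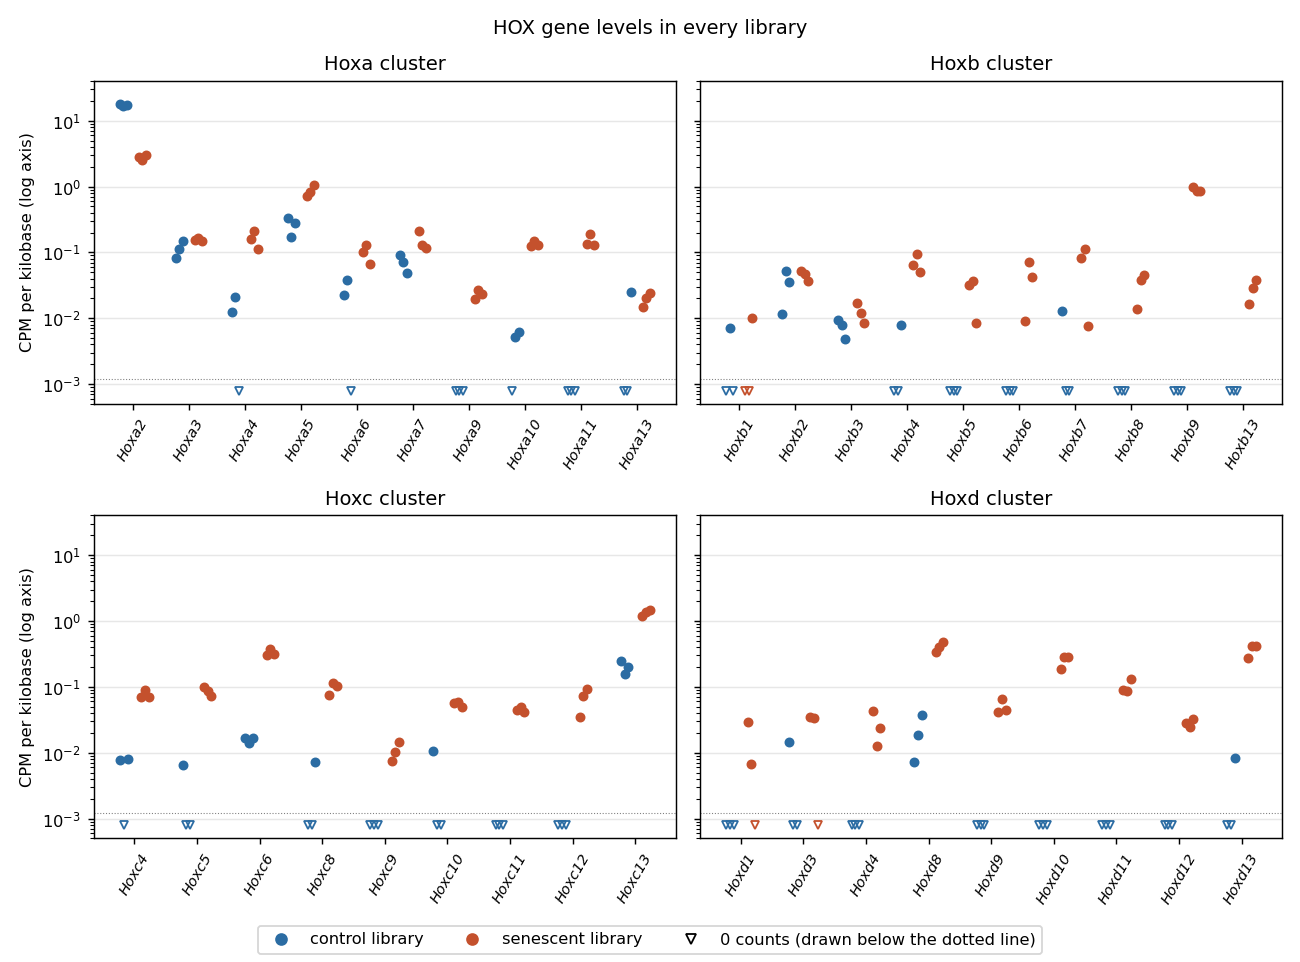
Level of each of the 38 HOX genes in each of the 6 libraries, as CPM per kilobase of gene model on a log axis, with 1 panel per cluster and genes in order of paralog number. Filled circles are single libraries (blue control, orange senescent) and open triangles are libraries with 0 counts. Hoxa2 lies above the other plotted genes in control and falls, while 30 genes have every senescent library above every control library. Of these 30, 12 passed the filter only through the senescent libraries and had to be higher, and 14 were not tested. The shares of 38.4% over tested genes and 45.2% over untested protein-coding genes with at least 3 counts are therefore no measure for the 30.

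Hoxa2, which directs second arch identity and the shape of the outer ear, had the highest level per length of the 38 genes in control cells, at 17.3 ± 0.540 CPM per kilobase, and was the 1 gene called lower. The gene lies on the minus strand at chr6:52162511-52164831 (mm10). Its counts were 1494, 1682 and 1430 in the control libraries and 261, 342 and 422 in the senescent libraries. All control values lay far above all senescent values, although senescent libraries were on average larger. The level went from 29.1 ± 0.908 to 4.67 ± 0.343 CPM (mean ± SD, n = 3 each), 6.23-fold lower in senescent cells. The log2 fold change was -2.64 (SE 0.09, edgeR quasi-likelihood adjusted p = 1.10e-07).

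Hoxa3, beside Hoxa2 in the cluster, patterns the thymus, the parathyroids and the neck. It had 25, 41 and 44 counts in control and 51, 79 and 76 in senescent libraries. The scaled groups did not overlap, but the log2 fold change of 0.44 (SE 0.22) did not pass the test (edgeR quasi-likelihood adjusted p = 0.107). Without control replicate 3 it passed, with a log2 fold change of 0.64 (edgeR quasi-likelihood adjusted p = 0.0355). Other annotated genes share 27.1% of the exon bases of Hoxa3, among them Hoxaas2 and Gm28308, which fell and are described below. How far the reads in these bases belong to Hoxa3 was not tested. Of the 7 anterior genes described (paralogs 1 to 3), 2 could be tested and none was called higher. The other 5 (Hoxb1, Hoxb2, Hoxb3, Hoxd1 and Hoxd3) had at most 13 counts in any library, and their control and senescent values overlapped.

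Noncoding RNAs near Hoxa2 were lower in senescent cells as well. Hoxaas2, a transcript on the opposite strand that begins upstream of Hoxa2, had 1216, 1449 and 1238 counts in control and 219, 357 and 373 in senescent libraries. It went from 24.6 ± 0.573 to 4.29 ± 0.298 CPM, 5.74-fold lower, with no overlap (log2 fold change -2.52, SE 0.08, edgeR quasi-likelihood adjusted p = 1.21e-07). The ratio of Hoxa2 to Hoxaas2 counts ran from 1.16 to 1.23 in control and from 0.958 to 1.19 in senescent libraries, ranges that overlap. Hotairm1, a long noncoding RNA of the same cluster, went from 7.09 ± 0.913 to 5.33 ± 0.118 CPM (log2 fold change -0.41, SE 0.11, edgeR quasi-likelihood adjusted p = 0.0105). Not all noncoding rows of the region fell. In this region 4 rows are annotated as miscellaneous RNA, of which Gm27861, Gm27867 and Gm27868 lie within the span of Hotairm1 on its strand. How far their reads belong to Hotairm1 was not tested. Gm27867 had too few counts to be tested (4, 8 and 9 in control and 2, 5 and 0 in senescent libraries). Of the others, Gm27861 fell from 2.11 ± 0.309 to 1.30 ± 0.145 CPM, while Gm27868 (1.66 ± 0.262 and 2.12 ± 0.226 CPM) and Gm27477 (2.11 ± 0.166 and 2.40 ± 0.234 CPM) did not pass the test. Gm15050, an antisense RNA farther along, did not pass it either, with 3.46 ± 0.301 CPM in control against 3.18 ± 0.333 CPM (edgeR quasi-likelihood adjusted p = 0.432).

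Exon bases are shared between rows here. Gm28308, a row annotated as protein-coding on the strand of Hoxa2, fell from 4.86 ± 0.492 to 0.820 ± 0.0804 CPM (log2 fold change -2.56, SE 0.13, edgeR quasi-likelihood adjusted p = 1.52e-06), and 15.04% of the exon bases of Hoxa2 lie in it. That share is by GENCODE M21, where the Hoxa2 model holds 1775 exon bases and differs from the model of 1681 bases in the count table. Both rows lie on the same strand, so strand cannot assign the reads in these bases. For rows on opposite strands, the library kit keeps strand, but the setting used for counting was not given in the sources used here.

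**Figure D2:**
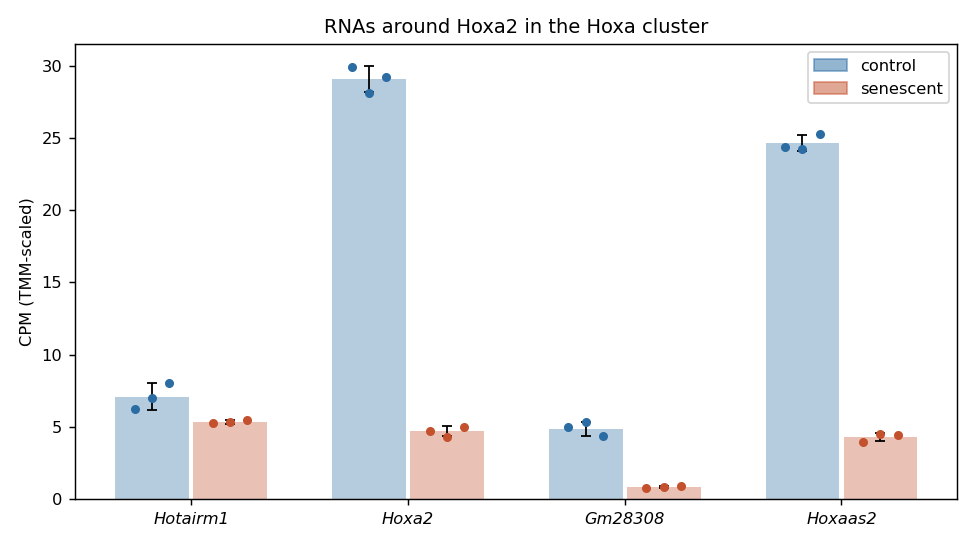
CPM of Hotairm1, Hoxa2, Gm28308 and Hoxaas2 in control (blue) and senescent (orange) libraries. Bars are means, error bars SD (n = 3) and points single libraries. Hoxa2 and Hoxaas2 fall from 29.1 and 24.6 to 4.67 and 4.29 CPM, while Hotairm1 falls from 7.09 to 5.33 CPM.

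Of the 15 central members (paralogs 4 to 8), 8 could be tested and all 8 rose, 6 of which had passed the filter only through the senescent libraries. Hoxa5, a gene of lung and thoracic patterning, had 31, 19 and 26 counts in control and 76, 123 and 169 in senescent libraries. The groups did not overlap, and the level rose 3.35-fold, from 0.490 ± 0.156 to 1.64 ± 0.325 CPM (log2 fold change 1.77, SE 0.26, edgeR quasi-likelihood adjusted p = 0.000478). Hoxa7, which acts in the thoracic axial skeleton, had 17, 16 and 9 counts in control and 44, 39 and 37 in senescent libraries. Its scaled groups did not overlap either, but its call was the least stable (log2 fold change 1.08, SE 0.33, edgeR quasi-likelihood adjusted p = 0.0203). It was lost without control replicate 2 (adjusted p = 0.0584 by edgeR), without control replicate 3 (adjusted p = 0.0732 by edgeR) and without senescent replicate 1 (adjusted p = 0.0537 by edgeR).

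The other central genes called were near silence in control. Hoxd8 had 1, 3 and 5 counts in control and 52, 89 and 113 in senescent libraries, a 19.7-fold rise from 0.0575 ± 0.0415 to 1.13 ± 0.201 CPM (edgeR quasi-likelihood adjusted p = 2.54e-05). Hoxc6, a thoracic and forelimb-level gene, had 2 counts in each control library and 41, 72 and 64 in the senescent libraries, a rise from 0.0381 ± 0.00407 to 0.802 ± 0.0926 CPM (edgeR quasi-likelihood adjusted p = 6.56e-06). Every senescent library was at least 41 counts for either gene and no control library exceeded 5. For genes with 1 to 3 counts over the 3 control libraries, the ratio of summed counts per effective depth is given with its exact 95% counting interval, which covers counting error only.

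Hoxa4 had 1, 2 and 0 counts in control and 14, 27 and 15 in senescent libraries, a ratio of 13.5 (4.39 to 67.5). Hoxc4 had 1, 0 and 1 against 10, 18 and 15, a ratio of 15.6 (4.05 to 133). These paralogs of group 4 thus had overlapping intervals. Hoxc5 had 1, 0 and 0 counts against 17, 21 and 19, a ratio of 41.3 (7.11 to 1658). Hoxc8, which acts in motor neuron and thoracic patterning, had 0, 0 and 1 against 12, 26 and 25, a ratio of 45.6 (7.89 to 1829). In each of these genes the senescent libraries lay above the control libraries, and the edgeR quasi-likelihood adjusted p ran from 0.000274 for Hoxc8 to 0.00127 for Hoxa4.

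Of the 16 posterior members (paralogs 9 to 13), 7 could be tested and all 7 rose, all but Hoxc13 having passed the filter only through the senescent libraries. Hoxc13, which drives hair and nail keratin genes, had 30, 23 and 24 counts in control and 163, 267 and 305 in senescent libraries. It was the posterior gene with a clear signal in control, and its groups lay far apart, at 0.492 ± 0.108 and 3.31 ± 0.341 CPM. The rise was 6.72-fold (log2 fold change 2.76, SE 0.18, edgeR quasi-likelihood adjusted p = 4.99e-06).

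Hoxb9 (plus strand, chr11:96271457-96276595, mm10), a gene of the thoracic skeleton and the mammary gland, had 0 counts in all control libraries and 139, 175 and 183 in the senescent libraries. Its senescent level was 2.29 ± 0.186 CPM. Set against a floor of 3 counts per library, which corresponds to 0.0572 CPM in control, it was at least 40.1-fold higher (edgeR quasi-likelihood adjusted p = 6.23e-06). It was the single member of the Hoxb cluster that could be tested, and it shares no exon bases with another annotated gene.

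Hoxd13, which shapes the digits and the genital tubercle and whose promoter is printed above, had 0, 0 and 1 counts in control and 38, 82 and 89 in senescent libraries. The ratio of summed counts per effective depth was 151 (26.9 to 6004), with an edgeR quasi-likelihood adjusted p = 2.15e-05. Hoxa10, a gene of the uterus and the upper hindlimb, had 0, 1 and 1 counts in control and 23, 39 and 36 in senescent libraries, a ratio of 35.5 (9.56 to 297, edgeR quasi-likelihood adjusted p = 4.57e-05). For both genes the lowest senescent library lay well above the highest control library.

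Hoxa11, Hoxd10 and Hoxd11, which pattern the middle segments of the limbs, had 0 counts in all control libraries. In the senescent libraries Hoxa11 had 17, 35 and 25 counts, at least 6.09-fold higher. Hoxd10 had 19, 41 and 44, at least 8.05-fold higher. Hoxd11 had 21, 29 and 47, at least 7.58-fold higher. The edgeR quasi-likelihood adjusted p ran from 0.000252 for Hoxd10 to 0.000428 for Hoxa11. For Hoxa11, 34.98% of the exon bases lie in Hoxa11os, its antisense partner, which had 39 counts in all over the senescent libraries and 0 in control.

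**Figure D3:**
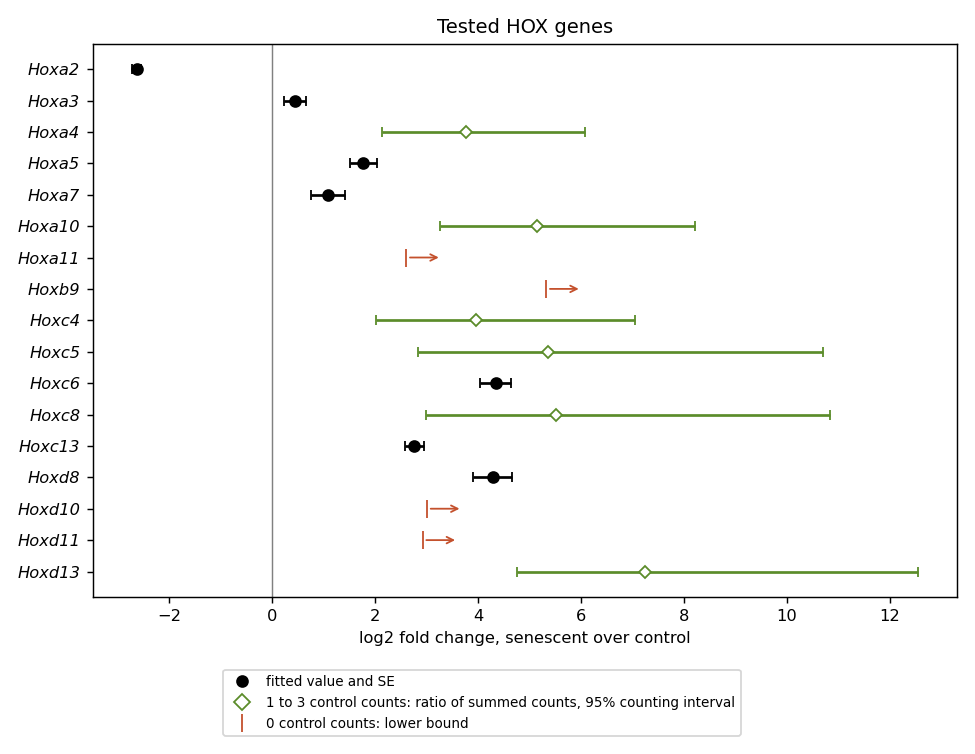
Change of the 17 tested HOX genes, senescent over control, on a log2 scale. Black circles are values fitted by edgeR with SE, green diamonds are ratios of summed counts with 95% counting intervals for genes with 1 to 3 control counts, and orange ticks with arrows are lower bounds for genes with 0 control counts. Hoxa2 lies below 0 (log2 fold change -2.64) and the other plotted genes above.

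The 21 untested members also held more senescent than control counts in most cases, at very low levels. None exceeded 19 counts in any library, and the highest senescent mean among them was 0.177 CPM (Hoxb4, with 0, 0 and 1 counts in control and 9, 19 and 11 in senescent libraries). In 14 of the 21 every senescent library lay above every control library, and in 7 the groups overlapped. The same separation was seen in 45.2% of the 3475 untested protein-coding genes with at least 3 counts over the 6 libraries, and in 38.4% of all tested genes. Those 14 were Hoxa6, Hoxa9, Hoxb4, Hoxb5, Hoxb6, Hoxb8, Hoxb13, Hoxc9, Hoxc10, Hoxc11, Hoxc12, Hoxd4, Hoxd9 and Hoxd12, and the 7 were Hoxa13, Hoxb1, Hoxb2, Hoxb3, Hoxb7, Hoxd1 and Hoxd3. Examples are Hoxa9 with 0 counts in control and 6, 12 and 11 in senescent libraries, at least 2.27-fold higher, and Hoxa13 with 0, 0 and 3 against 2, 4 and 5. With Hoxd3, 62.8% of its exon bases are shared with other annotated genes, as are 52.9% of Hoxb3 and 52.3% of Hoxd4, while 23 of the 38 genes share none.

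Of the 38 HOX genes, 16 had 0 counts in all 3 control libraries, and 15 of these had at least 1 count in every senescent library, the exception being Hoxd1. Among all 22032 protein-coding genes, 5522 had 0 counts in all control libraries. Of these 5522, 1090 (19.7%) had at least 1 count in every senescent library, and 2830 (51.2%) had 0 counts in every library. None of the 16 HOX genes had 0 counts in every library. The share of 19.7% includes those 2830 genes in its base, so it is no direct measure for the 16. The senescent libraries were deeper on average and held more detected genes, and the part of this in the HOX counts was not tested. In all, 35 of the 38 genes were detected in every senescent library, Hoxb1, Hoxd1 and Hoxd3 being absent from at least 1. Control and senescent values did not overlap for 31 of the 38 genes. The 31 include the 12 genes that passed the filter only through the senescent libraries and could not overlap. The share of 75.3% over all genes tested is therefore no measure for them.

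More than 1 paralog of the same number could be tested in groups 4 (Hoxa4 and Hoxc4), 5 (Hoxa5 and Hoxc5), 8 (Hoxc8 and Hoxd8), 10 (Hoxa10 and Hoxd10), 11 (Hoxa11 and Hoxd11) and 13 (Hoxc13 and Hoxd13), each with 2 genes called higher. In every pair at least 1 gene had passed the filter only through its senescent libraries and had to be higher, and in groups 4, 8, 10 and 11 both had, so the shared direction is no result about the pairs. In group 4 the counting intervals overlapped, and in group 8 the 19.7-fold rise of Hoxd8 lay within the interval of Hoxc8. Groups 10 and 11 hold lower bounds. In groups 5 and 13, Hoxc5 and Hoxd13 each rest on 1 control count and passed the filter only through their senescent libraries. Such a filter keeps genes with a large ratio, and the folds of Hoxa5 and Hoxc13 are of mean CPM. The sizes below are therefore given without a comparison within the pair. Within group 5 the rise was 3.35-fold for Hoxa5, from a measurable control level, and 41.3-fold by summed counts for Hoxc5, and within group 13 it was 6.72-fold for Hoxc13 and 151-fold by summed counts for Hoxd13. Group 12 (Hoxc12 and Hoxd12) had no member that could be tested.

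Summed over the 38 genes, HOX RNA was lower in senescent cells, at 20.7 ± 0.893 CPM against 31.4 ± 1.11 CPM in control (n = 3 each), while the 37 genes other than Hoxa2 together rose 6.87-fold, from 2.33 ± 0.252 to 16.0 ± 0.919 CPM. The Hoxd sum rose 39.5-fold, from 0.0843 ± 0.0364 to 3.33 ± 0.453 CPM. The Hoxb sum rose 18.6-fold, and 4.81-fold without Hoxb9. The Hoxc sum rose 9.12-fold and the sum of the 9 described Hoxa genes other than Hoxa2 rose 2.95-fold. The groups of 3 libraries did not overlap in any of these sums.

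As a share of the CPM per kilobase summed over the 38 genes, Hoxa2 made up between 95.3% and 96.1% in the control libraries and between 27.6% and 32.3% in the senescent libraries. Hoxc made up between 0.978% and 1.53% in control and between 21.8% and 23.99% in senescent libraries, and Hoxd between 0.105% and 0.250% and between 12.4% and 15.02%. Posterior genes together held between 0.927% and 1.36% in control and between 37.5% and 40.01% in senescent libraries. The order of levels per kilobase in control was Hoxa2, Hoxa5 (0.261 CPM per kilobase), Hoxc13 (0.200), Hoxa3 (0.116) and Hoxa7 (0.0702), in which Hoxa5 and Hoxc13 overlapped, as did Hoxa3 and Hoxa7. In senescent cells it was Hoxa2 (2.78), Hoxc13 (1.34), Hoxb9 (0.892), Hoxa5 (0.875), Hoxd8 (0.413), Hoxd13 (0.373) and Hoxc6 (0.333), in which Hoxb9 and Hoxa5 overlapped, Hoxd8 overlapped Hoxd13, and Hoxd13 overlapped Hoxc6.

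**Figure D4:**
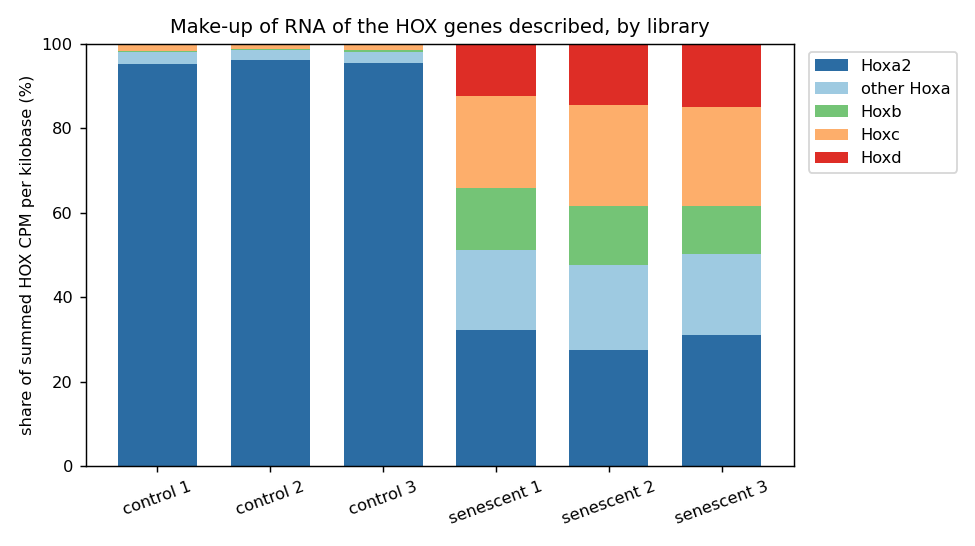
Share of the level summed over the 38 HOX genes (CPM per kilobase, in percent) held by Hoxa2, the other Hoxa genes described and the Hoxb, Hoxc and Hoxd clusters in each library. Hoxa2 takes 95.6% on average in control and 30.4% in senescent libraries, and the other genes go from 4.40% to 69.6%.

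Rows within the clusters that are not HOX genes were also read from the same fit. Of 46 such rows, 11 could be tested, of which 3 were higher, 5 lower and 3 neither. Shares over all genes tested were 36.2% higher and 34.1% lower. The 3 higher rows, Gm53, Mir196a-1 and Gm28309, passed the filter only through their senescent libraries and had to be higher. Their direction and calls are therefore not set against that background. Gm53, upstream of Hoxb9 on the same strand, had 1, 0 and 0 counts in control and 83, 103 and 116 in senescent libraries, a ratio of 219 (38.9 to 8662). The Mir196a-1 row, between Gm53 and Hoxb9, had 0 counts in control and 14, 21 and 34 in senescent libraries, at least 5.36-fold higher (edgeR quasi-likelihood adjusted p = 0.000631). Gm28309 in the Hoxd cluster had 0 counts in control and 11, 14 and 19 in senescent libraries, at least 3.50-fold higher. Gm53, the Mir196a-1 row and Hoxb9 thus had at most 1 count in any control library and counts in every senescent library. The pseudogene Gm11539, the row next to Gm53 and on the same strand, fell from 2.30 ± 0.453 to 1.14 ± 0.215 CPM.

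The mature microRNA of Mir196a-1 is printed because members of this family are encoded within 3 of the HOX clusters and are known to repress HOX messenger RNAs. Libraries were made from polyadenylated RNA, so the row counts reads of a longer transcript across the gene, and the mature microRNA was not measured. In RefSeq (GRCm38.p6) the mature form lies at chr11:96265187-96265208 on the plus strand, and capitals mark the seed, bases 2 to 8. The form encoded in the Hoxa cluster, mmu-miR-196b-5p at chr6:52230129-52230150 on the minus strand, shares the seed.
mmu-miR-196a-5p: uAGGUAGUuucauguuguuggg
mmu-miR-196b-5p: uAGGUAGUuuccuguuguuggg

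The genes flanking the clusters were mixed. Of the 40 protein-coding genes that form the 5 nearest on each side, 35 could be tested, with 11 higher, 19 lower and 5 neither, and a median log2 fold change of -0.34. Across all genes tested, 36.2% were higher and 34.1% lower. Around Hoxc, 8 of 9 tested neighbours were lower and none higher. Of the 5 tested Hoxc genes, all called higher, 4 had passed the filter only through the senescent libraries, so their direction is not set against that of the neighbours. Around Hoxd, 5 of 9 were higher and 3 lower. The neighbour with the largest fall was Nfe2l3, the farthest of the 5 on its side of Hoxa. It went from 17.6 ± 0.786 to 0.955 ± 0.210 CPM (edgeR quasi-likelihood adjusted p = 1.77e-07). Among the risers, Creb5 of the Hoxa neighbours went from 0.414 ± 0.0781 to 1.61 ± 0.381 CPM. Chn1 of the Hoxd neighbours went from 1.83 ± 0.152 to 6.24 ± 0.310 CPM. Creb5 and Chn1 were also each the farthest of the 5 on their side. The homeobox genes Evx1 and Evx2, which adjoin Hoxa13 and Hoxd13, had at most 2 counts in any library and were not tested.

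HOX proteins bind DNA together with TALE homeodomain cofactors of the Pbx, Meis and Pknox families, and these were expressed in both groups. Of 8 that were read and tested, 1 was higher and 7 lower, beside 36.2% and 34.1% of all genes tested. Meis3 rose from 4.41 ± 0.365 to 13.9 ± 2.97 CPM (log2 fold change 1.65, SE 0.17). Among those that fell, the log2 fold change was -0.90 for Pbx2, -0.54 for Meis1, -0.53 for Pknox1 and -0.39 for Meis2.

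The Polycomb side of HOX regulation, which keeps these genes silent, held 24 genes, all tested, with 6 higher, 12 lower and 6 neither. Shares over all genes tested were 36.2% higher and 34.1% lower. Ezh2, the histone H3K27 methyltransferase of proliferating cells, fell from 61.4 ± 3.96 to 14.4 ± 1.58 CPM (log2 fold change -2.09, SE 0.10, edgeR quasi-likelihood adjusted p = 7.20e-07). Phf19, an accessory subunit of its complex, fell from 15.04 ± 1.12 to 1.13 ± 0.253 CPM (log2 fold change -3.72, SE 0.16). Cbx2, a chromodomain subunit of Polycomb repressive complexes, fell from 15.9 ± 0.690 to 5.61 ± 0.345 CPM, and Jarid2, which recruits the Ezh2 complex, from 16.96 ± 0.371 to 8.79 ± 0.529 CPM. The other way, Pcgf5 (log2 fold change 1.02), Bmi1 (0.68), Phc3 (0.46) and Eed (0.37) rose. The median log2 fold change of the list was -0.28, beside 0.01 over all genes tested. It was lower still for the TALE cofactors (-0.53) and for the Trithorax-side genes described next (-0.39), so a negative median was not particular to the Polycomb side.

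The Trithorax side, which maintains HOX expression, held 13 genes, with 2 higher, 8 lower and 3 neither. The same shares of 36.2% higher and 34.1% lower over all genes tested stand beside these counts. Kmt2a, the H3K4 methyltransferase best known for its control of HOX genes, rose from 155 ± 3.67 to 195 ± 5.66 CPM (log2 fold change 0.33, SE 0.05), and its partner Wdr5 had a log2 fold change of 0.25. Psip1, a chromatin tether of the Kmt2a complex, fell from 81.9 ± 3.94 to 27.5 ± 4.03 CPM (log2 fold change -1.57, SE 0.11). Kdm6b, a demethylase of the Polycomb mark, fell by 1.20, Men1 by 0.95 and Hcfc1 by 0.58 on the log2 scale. The part of either list in the HOX changes was not tested.

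**Figure D5:**
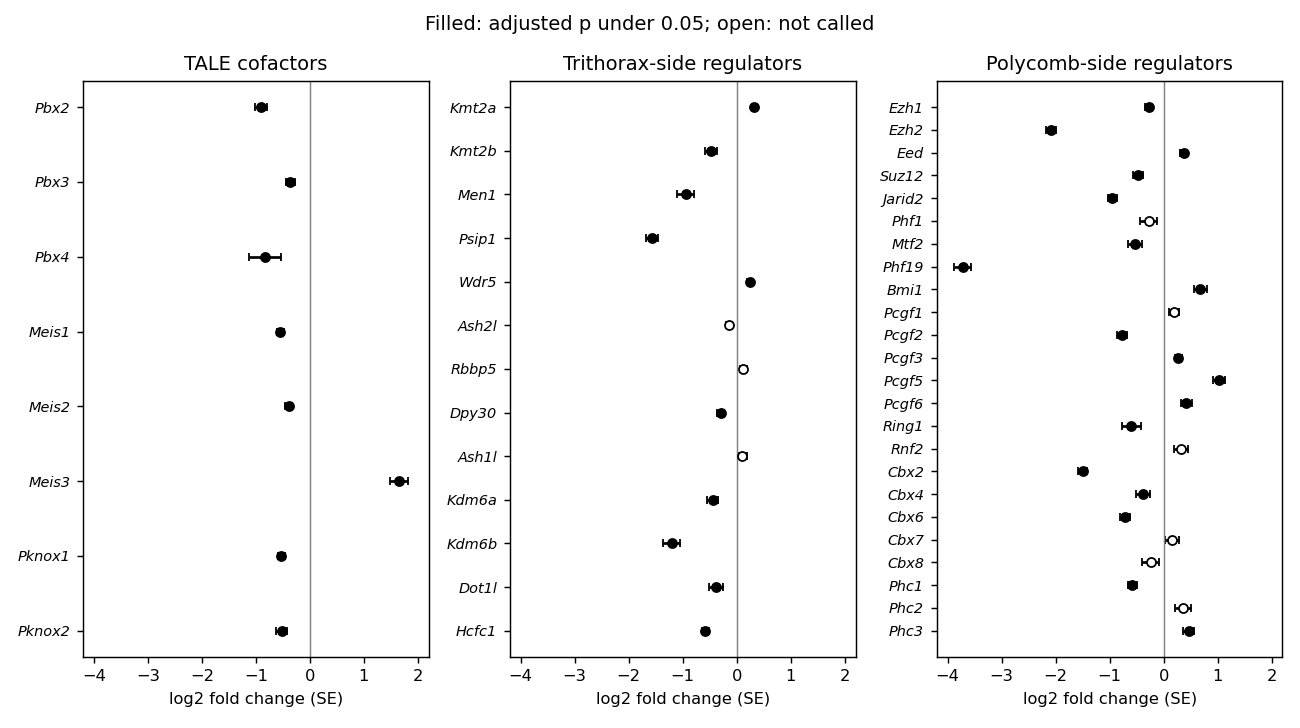
Log2 fold change (senescent over control, error bars SE) of 8 TALE cofactors, 13 Trithorax-side and 24 Polycomb-side genes. Filled circles passed an adjusted p under 0.05 in edgeR's quasi-likelihood test and open circles did not. Falls reach -3.72 for Phf19 and -2.09 for Ezh2, and the largest rises are 1.65 for Meis3 and 1.02 for Pcgf5.

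Among 17 upstream signals, 12 could be tested, with 6 higher and 4 lower, beside 36.2% and 34.1% of all genes tested, and 2 neither. Retinoic acid induces anterior HOX genes in the embryo, and Aldh1a1, an enzyme that makes it, rose from 85.2 ± 2.53 to 607 ± 44.5 CPM (log2 fold change 2.83, SE 0.07, edgeR quasi-likelihood adjusted p = 3.77e-08), with Aldh1a3 also higher (log2 fold change 1.14). Of its receptors, Rarg and Rxra fell by 1.08 and 1.00, Rxrb by 0.80 and Rara by 0.90 on the log2 scale, while Rarb and Rxrg rose (log2 fold change 0.68 and 3.89), both at under 1 CPM in either group. Gdf11, a TGF-beta family ligand that sets the onset of posterior HOX genes in the trunk, rose from 8.05 ± 0.227 to 16.2 ± 1.24 CPM. Egr2, a hindbrain regulator of Hoxa2 and Hoxb2, rose (log2 fold change 1.89).

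Other homeobox and T-box genes of mesenchyme were mixed, with 13 higher, 9 lower and 8 neither of 30 tested among 37. Those that rose included Msx2 (log2 fold change 1.77), Lhx9 (1.45), Tbx18 (1.92) and Tbx3 (1.51), and those that fell included Msx1 (-0.81), Six5 (-1.11), Dlx1 (-0.74) and Lhx2 (-1.40). Of 23 genes known as HOX targets or partners in patterning, 21 were tested, with 10 higher and 10 lower. For both lists, the shares over all genes tested were 36.2% higher and 34.1% lower. Fgf10, a limb bud growth factor, rose from 0.933 ± 0.167 to 29.96 ± 3.03 CPM (log2 fold change 5.01, SE 0.15). Bmp2, Bmp4 and the Eph receptor Epha7 rose by 5.84, 5.09 and 2.06 on the log2 scale. Gas1 fell from 227 ± 2.72 to 20.6 ± 2.19 CPM (log2 fold change -3.47, SE 0.09), and Sox9, which is also in the chondrocyte list, fell from 215 ± 12.6 to 50.9 ± 4.11 CPM. Epha3 and Ptch1 fell by 2.17 and 0.96 on the log2 scale.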

How the data were processed

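RNA from 3 control and 3 senescent MAF samples was sequenced with the TruSeq Stranded mRNA kit as paired reads. The authors mapped reads to mm10 with STAR and counted them per gene with Subread in the MAPRSeq pipeline, and deposited raw counts without normalization. The strand setting of the counting was not given in the sources used here, and all 6 count columns matched a sample label. From these counts, genes were kept by filterByExpr in edgeR 4.0.16 (R 4.3.3), which left 17589 genes, with a cutoff near 0.173 CPM in 3 libraries. TMM factors scaled the libraries, and the main test was the robust quasi-likelihood test of edgeR (two-sided, with no term but the group, Benjamini-Hochberg adjustment over all genes tested). The scripts were tested on simulated data. A count of 0 allows up to 3 counts, and intervals and floors cover counting error only. HOX members, lists, tests and the rule for named genes were chosen with earlier results of these data known. Of the 39 HOX genes, 1 is not reported here, nor are 2 genes of the other lists. All others are named, with values in every library for those with a mean of at least 1 CPM or an adjusted p under 0.05 and a log2 fold change over 1 in size. For other lists, up to 4 genes in each direction with the smallest p are named. Exon overlap was read from GENCODE M21, and promoters and microRNAs from RefSeq (GRCm38.p6). The promoters of Hoxb9 and Hoxc13, which the same rule would show, were not analysed here, nor were protein sequences. Alternatives were DESeq2 1.42.0, the exact test of edgeR, other scalings and filters, a GC correction, a replicate block and leaving out each library.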

Additional observations from a re-analysis of the deposited data

How the results depend on the processing

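No alternative reversed the direction of a tested HOX gene. Of 240 values over 17 genes 236 kept their side of the threshold, the exceptions being Hoxa7 (3) and Hoxa3 (1). Neither of these genes had passed the filter only through the senescent libraries. The filter mattered most. Without a filter all 38 HOX genes described entered the fit and 28 were called higher, beside 25.9% of all 29776 genes in that fit. Of these 28, 13 were untested in the main fit for low counts. With at least 10 counts required in every library 4 entered and their median log2 fold change was 1.15. Of these 4, 2 were called higher, beside 33.9% of all 15205 genes in that fit. At an unadjusted p under 0.05 with a fold over 2, 5300 genes were called in all. Leaving out each library in turn gave 13 to 16 HOX genes called higher, 1 lower, a median log2 fold change of 4.15 to 4.86 (the highest without senescent replicate 2, against 4.34 with all libraries), and 11214 to 13695 genes called in all, the highest without senescent replicate 3, which stands apart. The filter fixed the direction of 12 of the 17 genes, so the kept direction and calls of those 12 and these medians support nothing. The replicate numbers do not pair the samples: deviations of same-numbered samples correlated at -0.37, 0.29 and -0.26, and not every sample correlated best with its own number. With the replicate number as a block, 15 HOX genes were higher and 1 lower, as without it, and 11624 genes were called in all, against 12365. Depth limits the 21 untested genes, whose changes rest on at most 19 counts in a library.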
